A study of Mus musculus with 9 samples.

Results

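The 8 genes Gata4, Gata6, Sox7, Sox17, Foxa1, Foxa2, Hnf4a and Hhex encode transcription factors of the endoderm. They were found by symbol among the 54232 Ensembl gene rows of the table, and each symbol had 1 row. The samples were wild-type mouse embryonic stem cells taken through embryoid body differentiation. Their polyadenylated RNA was sequenced as 9 libraries, 3 labelled EBD2, 3 EBD5 and 3 EBD6. Beyond the WT genotype and the differentiation step, the labels give no cell line, strain or culture time, and they do not say what the number in a group's name stands for. Libraries that agreed within sampling noise were summed, which left 3 samples of EBD5 and 2 of each other group. Levels are given in CPM (counts scaled to a common library size), as mean ± SD over these samples, and library values follow the order of replicates 1, 2 and 3. An SD over 2 samples can fall below the counting error. Nothing in the labels says that replicates were separate cultures, so p-values measure the spread between these libraries, which may be technical.

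An embryoid body is an aggregate of pluripotent cells that differentiates without an embryo's patterning, and it typically forms an outer layer of primitive endoderm that matures into visceral and parietal endoderm. GATA factors open this programme in the mouse blastocyst. SOX factors of the F group and the nuclear receptor HNF4A act in the extraembryonic layer that forms, while FOXA proteins are pioneer factors that bind closed chromatin and later act in gut, liver and lung. Several of the 8 genes also work outside the endoderm: Gata4 and Gata6 in the heart, Sox7, Sox17 and Hhex in blood vessels and blood progenitors, and Foxa2 in the node and floor plate. These libraries are from whole cultures, so fewer cells of a type and less RNA per cell cannot be told apart.

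The regions just before the transcription start are shown for Foxa1, Foxa2, Hnf4a and Hhex, which have entries among RefSeq promoters of GRCm38.p6. They are shown because 3 of these windows hold a core sequence that GATA or FOXA factors are known to bind. No window of the other members was searched, whether or not they have an entry. Windows of 250 bases before each RefSeq start were searched on both strands. The cores were AGATAA and TGATAA for GATA factors, and for FOXA factors the core was TGTTTAC. For SOX factors it was AACAAT, and for HNF4 factors CAAAGTCCA was searched. Each run starts with its window and stops where an annotated exon of the gene begins or, for the upstream Hnf4a start, at the end of the match, and capitals mark a match.
Foxa1, chr12:57546122-57546361, minus strand: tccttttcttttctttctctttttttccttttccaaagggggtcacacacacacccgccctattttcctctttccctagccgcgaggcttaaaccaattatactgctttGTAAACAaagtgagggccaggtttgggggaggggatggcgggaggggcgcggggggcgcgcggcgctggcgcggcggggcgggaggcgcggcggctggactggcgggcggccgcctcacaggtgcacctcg
Foxa2, the most downstream of 3 starts, chr2:148045465-148045714, minus strand: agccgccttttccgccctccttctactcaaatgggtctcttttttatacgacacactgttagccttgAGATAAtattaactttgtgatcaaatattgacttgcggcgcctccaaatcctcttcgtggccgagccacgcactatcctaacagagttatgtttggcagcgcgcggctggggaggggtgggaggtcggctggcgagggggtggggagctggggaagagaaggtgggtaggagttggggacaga
Hnf4a, upstream start, chr2:163506607-163506810, plus strand: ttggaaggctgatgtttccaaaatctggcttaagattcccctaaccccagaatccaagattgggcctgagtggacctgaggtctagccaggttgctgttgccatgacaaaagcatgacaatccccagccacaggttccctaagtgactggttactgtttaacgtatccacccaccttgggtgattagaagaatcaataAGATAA
Hhex, chr19:37434591-37434809, plus strand: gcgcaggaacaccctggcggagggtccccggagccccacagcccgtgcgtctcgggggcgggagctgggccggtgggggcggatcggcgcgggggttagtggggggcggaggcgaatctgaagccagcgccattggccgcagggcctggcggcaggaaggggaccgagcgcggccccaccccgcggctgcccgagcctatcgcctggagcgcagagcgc
The Foxa1 window held the FOXA core, read from the other strand, 141 bases before its start, and 3.17% of all 32851 RefSeq promoter windows of this length held it. The AGATAA of Foxa2 lay 183 bases and that of Hnf4a 52 bases before the start, against 9.99% of all windows with AGATAA. None of the 5 cores was in the windows of the downstream Hnf4a start, of Hhex or of the other 2 Foxa2 starts, which says only that these letters are not there. TGATAA was in 7.94% of all windows, either GATA core in 16.6%, AACAAT in 9.42% and CAAAGTCCA in 0.384%. The gene-level counts do not tell the Hnf4a starts apart, which are known as its P2 (upstream) and P1 (downstream) promoters.

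In EBD2 the 8 genes together took 49.0 to 56.0 CPM per library, in EBD5 396 to 399 and in EBD6 356 to 411. All 8 were higher in EBD5 than in EBD2 (edgeR quasi-likelihood F test, p adjusted by Benjamini-Hochberg over 16168 genes), where 70.0% of all tested genes were called, 34.9% higher and 35.1% lower. Between EBD5 and EBD6 the summed levels overlapped while their make-up changed: Sox17 was higher, and Hnf4a, Hhex and Gata6 were lower. In that comparison 3 of the 8 were called higher and 3 lower, close to the background of 70.2% of tested genes called, 36.9% higher and 33.3% lower. All 8 passed the filter on low counts. Their log2 fold changes had a median of 4.11 in EBD5 against EBD2 and 0.11 in EBD6 against EBD5, beside -0.01 and 0.04 over all tested genes. The comparisons share the EBD5 libraries. The CPM of the libraries did not overlap between EBD2 and EBD5 for any of the 8, nor for 77.8% of all tested genes, and between EBD5 and EBD6 for 6 of the 8, against 76.0% of tested genes.

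**Figure D1:**
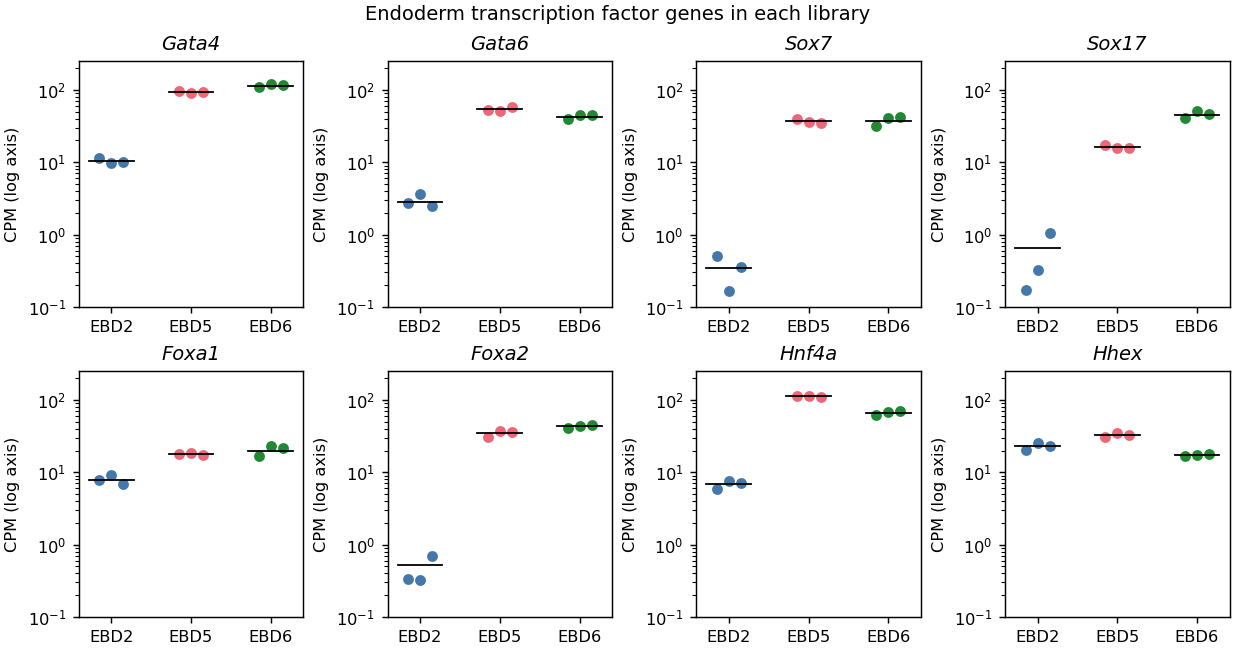
CPM (log axis) of each gene in the 9 libraries; points are libraries and black lines are the mean over samples (n = 2, 3 and 2). All 8 genes lie higher in EBD5 than in EBD2, and Hhex alone lies lower in EBD6 than in EBD2.

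Libraries held 5453412 to 11703371 expected counts. EBD6 replicates 2 and 3 were the deepest, at 10446233 and 11703371, so raw counts cannot be compared between groups without scaling. EBD2 replicates 1 and 2 and EBD6 replicates 2 and 3 were the pairs that agreed within sampling noise (chi-square per gene 0.949 and 1.01). Pou5f1, Sox2 and Nanog, which mark pluripotent cells, stood at 266 ± 46.8, 353 ± 25.9 and 185 ± 11.21 CPM in EBD2. They stood at 231 ± 5.32, 160 ± 12.1 and 231 ± 4.82 CPM in EBD5 and at 186 ± 14.4, 182 ± 20.5 and 180 ± 26.1 CPM in EBD6. RNA of pluripotency genes was thus present in each group. Nuclear ribosomal RNA took 0.726 to 0.811% of counts in EBD5 libraries, against 0.0165 to 0.0207% in EBD2 and 0.0192 to 0.0247% in EBD6. Genes of mitochondrial DNA took 1.07 to 1.15% in EBD5, 0.104 to 0.175% in EBD2 and 0.0393 to 0.0935% in EBD6. The part of these differences in the levels of the 8 genes was not tested. The longest transcripts of the 8 genes had 51.0 to 57.4% GC, all above the median of 49.4% over tested genes. A second set of fold changes, from which the median change of genes of like GC content and exon length was removed, is given as GC-adjusted beside a printed fold change or count of calls where it changes a call or a direction or moves the fold by over 1.5 times. In it, 1 of the 8 was higher and 5 were lower in EBD6 than in EBD5, beside 5082 higher and 4986 lower of 16168 tested genes. For EBD5 against EBD2 the GC-adjusted fit called 5446 genes higher and 5484 lower.

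Gata4 and Gata6 encode the zinc-finger factors that start the primitive endoderm programme in the mouse. Gata4 (ENSMUSG00000021944, chromosome 14, 63198922 to 63271692, minus strand, mm10) read 11.5, 9.63 and 10.2 CPM in EBD2, 96.4, 91.2 and 92.5 in EBD5, and 109, 121 and 117 in EBD6. The 3 groups did not overlap. Gata4 was 8.94-fold higher in EBD5 than in EBD2 (log2 3.16 ± 0.09 SE; edgeR adjusted p = 6.35e-10). From EBD5 to EBD6 it was 1.23-fold higher (log2 0.29 ± 0.06 SE; edgeR adjusted p = 0.00180), but the GC-adjusted change had the opposite sign (log2 -0.35, adjusted p = 2.23e-04), so its direction in that comparison depends on the scaling.

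Gata6 (ENSMUSG00000005836, chromosome 18, 11052064 to 11085635, plus strand) read 2.71, 3.59 and 2.46 CPM in EBD2, 52.7, 51.3 and 58.0 in EBD5, and 39.1, 45.6 and 44.9 in EBD6. Its groups did not overlap either, and EBD5 was the highest. It rose 18.4-fold from EBD2 to EBD5 (log2 4.2 ± 0.15 SE; edgeR adjusted p = 2.77e-09), from a lower start than Gata4. Between EBD5 and EBD6 Gata6 fell by 0.33 on the log2 scale (± 0.09 SE; edgeR adjusted p = 0.00831), and the GC-adjusted fall was larger (log2 -0.82). Per exon length, Gata6 stood at 0.141 to 0.224 times Gata4 in the EBD2 libraries, at 0.328 to 0.376 times in EBD5 and at 0.216 to 0.230 times in EBD6. The opposite-strand transcript 1010001N08Rik, which overlaps Gata6 by 504 bases at its 5' end, had no count in EBD2, 16, 18 and 9 counts in the EBD5 libraries and 10, 19 and 16 in those of EBD6. Scaled to library size, it read 2.53 ± 0.720 CPM in EBD5 and 1.62 ± 0.196 in EBD6, a difference that was not called (edgeR adjusted p = 0.0884). It was thus seen in the groups with high Gata6, and its EBD5 level was at least 15.1-fold that of EBD2, with 3 counts over the group as the limit of a count of 0. Whether the counting used strand is not given in the sources used here, and reads in the shared 504 bases may not have been told apart.

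Sox7 and Sox17 encode SOX factors of the F group, and both act in mouse extraembryonic endoderm, Sox17 also in definitive endoderm. Sox7 (ENSMUSG00000063060, chromosome 14, 63943673 to 63950732, plus strand) had 3, 1 and 2 counts in the EBD2 libraries, or 0.509, 0.163 and 0.352 CPM, which is near the limit of detection. In EBD5 it read 40.1, 35.9 and 34.6 CPM and in EBD6 31.5, 40.7 and 42.6 CPM. Its rise to EBD5 ranked 161 among 16168 genes (log2 6.71 ± 0.28 SE; edgeR adjusted p = 7.80e-09), and the ratio of its scaled group counts was 109 (95% counting interval 49.7 to 298). The EBD5 and EBD6 libraries of Sox7 overlapped (36.9 ± 2.88 and 36.6 ± 7.22 CPM), with a log2 change of 0.03 ± 0.12 SE (edgeR adjusted p = 0.838). Its sign turned under 4 of 20 alternatives.

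Sox17 (ENSMUSG00000025902, chromosome 1, 4490931 to 4497354, minus strand) had 1, 2 and 6 counts in the EBD2 libraries. It read 17.4, 15.5 and 15.5 CPM in EBD5 and 40.9, 51.2 and 46.2 CPM in EBD6, so its groups lay apart and it was highest in EBD6. The rise from EBD2 to EBD5 was 30.7-fold (log2 4.94 ± 0.32 SE; edgeR adjusted p = 2.16e-07; log2 5.94 without EBD2 replicate 3). From EBD5 to EBD6 Sox17 rose again, 2.80-fold (log2 1.49 ± 0.14 SE; edgeR adjusted p = 4.28e-06), and it also rose in the GC-adjusted fit (log2 1.13, adjusted p = 2.17e-05). It was the gene of the 8 that passed a test against a fold of 1.5 upward in this comparison, while Hnf4a and Hhex passed it downward. Per exon length, Sox17 stood at 0.299 to 0.310 times Sox7 in the EBD5 libraries and at 0.749 to 0.896 times in those of EBD6. These ranges did not overlap, but a difference between 3 and 2 samples cannot reach a two-sided p below 0.1 in an exact permutation test, so no p is given. The transcript Gm37587, on the opposite strand across the 5' end of Sox17, had 0 to 3 counts in each of the 9 libraries.

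Foxa1 and Foxa2 encode forkhead pioneer factors that act together in gut and liver. Foxa2 (ENSMUSG00000037025, chromosome 2, 148042877 to 148046969, minus strand) had 2, 2 and 4 counts in the EBD2 libraries. It read 31.1, 36.8 and 35.5 CPM in EBD5 and 41.6, 43.5 and 45.4 CPM in EBD6, with no overlap. The ratio of its scaled group counts in EBD5 to those in EBD2 was 76.3 (95% counting interval 38.5 to 178), a rise ranked 203 among 16168 (log2 6.21 ± 0.23 SE; edgeR adjusted p = 3.43e-09). From EBD5 to EBD6 Foxa2 was higher by 0.33 on the log2 scale (± 0.10 SE; edgeR adjusted p = 0.0139). That call ended without EBD5 replicate 1 (adjusted p = 0.0831) and in DESeq2 (adjusted p = 0.132), and the GC-adjusted change was negative (log2 -0.29, adjusted p = 0.0184). The lincRNA 9030622O22Rik, which lies 2674 bases beyond the 3' end of Foxa2 on the same strand, had no count in EBD2, 18, 21 and 22 counts in EBD5 and 16, 22 and 33 in EBD6. Scaled to library size, it read 3.63 ± 0.472 CPM in EBD5 and 2.58 ± 0.343 in EBD6, a difference that was not called (edgeR adjusted p = 0.0982). Its EBD5 level was at least 21.4-fold that of EBD2, so both genes of this locus were near or at 0 in EBD2 and present in EBD5 and EBD6.

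Foxa1 (ENSMUSG00000035451, chromosome 12, 57540628 to 57546916, minus strand) was measurable in EBD2, at 7.80, 9.30 and 6.87 CPM. It read 17.6, 18.2 and 17.2 CPM in EBD5 and 16.6, 22.9 and 21.6 CPM in EBD6. Foxa1 rose 2.23-fold from EBD2 to EBD5 (log2 1.16 ± 0.17 SE; edgeR adjusted p = 1.11e-04). Its EBD5 and EBD6 libraries overlapped, and the log2 change of 0.18 ± 0.15 SE did not pass (edgeR adjusted p = 0.283), although it did without EBD6 replicate 1 (log2 0.34, adjusted p = 0.0237), and the GC-adjusted value was -0.28. Per exon length, Foxa2 stood at 0.0493 to 0.144 times Foxa1 in the EBD2 libraries, at 2.48 to 2.90 times in EBD5 and at 2.66 to 3.52 times in EBD6. The order of these paralogues in EBD2 was therefore opposite to that in EBD5 and EBD6.

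**Figure D2:**
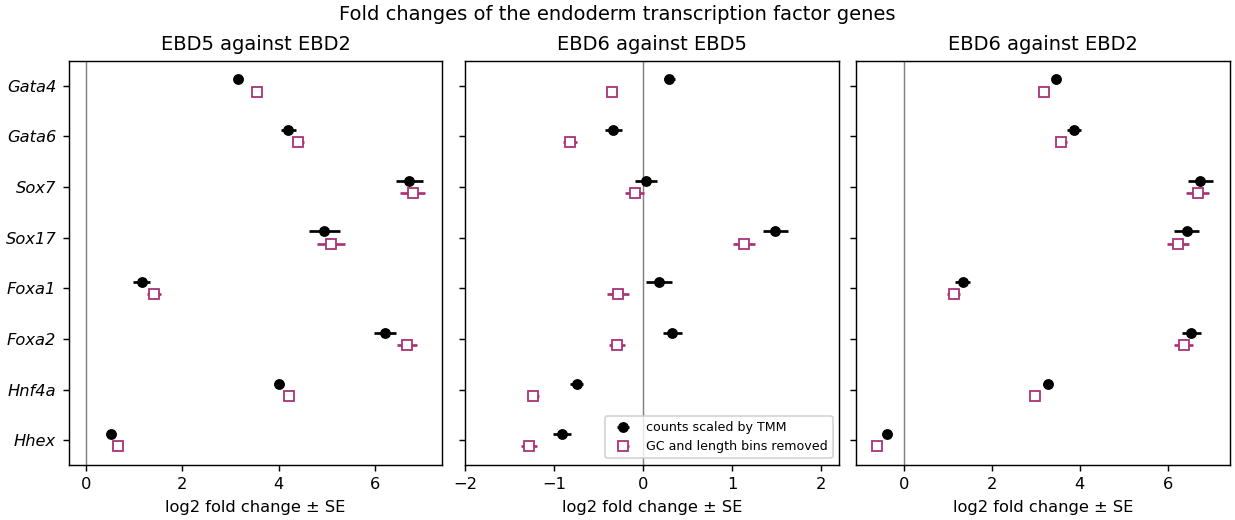
Log2 fold change ± SE of the 8 genes in the 3 comparisons, from counts scaled by TMM (filled) and with medians of GC and length bins removed (open). In EBD5 against EBD2 all points lie above 0 in both, and in EBD6 against EBD5 Gata4, Foxa1, Foxa2 and Sox7 change side.

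Hnf4a encodes a nuclear receptor that mouse visceral endoderm needs to express its secreted proteins. Hnf4a (ENSMUSG00000017950, chromosome 2, 163506808 to 163572910, plus strand) read 5.94, 7.50 and 7.22 CPM in EBD2, 113, 112 and 110 in EBD5, and 61.1, 69.2 and 71.4 in EBD6. It was thus highest in EBD5, with no overlap between groups. Hnf4a rose 16.1-fold from EBD2 to EBD5 (log2 4.01 ± 0.11 SE; edgeR adjusted p = 3.22e-10). From EBD5 to EBD6 it fell by 0.75 on the log2 scale (± 0.07 SE; edgeR adjusted p = 4.87e-06), and by 1.24 in the GC-adjusted fit. In EBD6 it was still 9.62-fold above EBD2. The antisense gene Hnf4aos, which overlaps Hnf4a over 34913 bases, had 0 or 1 count in each library, and R3hdml, 4196 bases upstream, at most 8.

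Hhex encodes a homeodomain repressor of the anterior visceral endoderm, the early liver and blood progenitors. Hhex (ENSMUSG00000024986, chromosome 19, 37434810 to 37440731, plus strand) read 20.02, 25.1 and 23.1 CPM in EBD2, 30.9, 34.8 and 32.9 in EBD5, and 16.7, 17.4 and 18.1 in EBD6. Its groups did not overlap, with EBD5 highest and EBD6 lowest. Its rise to EBD5 was the smallest of the 8 (1.44-fold, log2 0.53 ± 0.10 SE; edgeR adjusted p = 6.28e-04) and did not pass against a fold of 1.5 (adjusted p = 0.812). Hhex fell by 0.91 on the log2 scale from EBD5 to EBD6 (± 0.10 SE; edgeR adjusted p = 9.93e-06). It was also lower in EBD6 than in EBD2 (log2 -0.39 ± 0.11 SE; edgeR adjusted p = 0.00811), and that call ended without EBD2 replicate 2 (adjusted p = 0.0516), with no filter on low counts (adjusted p = 0.0649) and in DESeq2 (adjusted p = 0.0681). The transcript Gm38345, on the opposite strand 154 bases from Hhex, had 2 to 12 counts per library.

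Against EBD2, the EBD6 libraries thus held more of 7 of the 8 factors and less Hhex, where 66.1% of tested genes were called, 33.8% higher and 32.3% lower. Libraries of these groups did not overlap for any of the 8, nor for 74.3% of tested genes. The rises were largest for Sox7 (107-fold), Foxa2 (92.8-fold) and Sox17 (86.2-fold; log2 7.43 in place of 6.43 without EBD2 replicate 3), whose EBD2 counts were at most 6 per library. Gata6 was 14.6-fold, Gata4 10.9-fold and Foxa1 2.53-fold higher (edgeR adjusted p at most 4.11e-05 for each of the 7). This comparison shares its libraries with the others.

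Levels of different genes were compared per kb of exon model. In EBD2 the order began with Hhex (4.52 ± 0.06 CPM per kb), Gata4 (2.66 ± 0.06) and Foxa1 (2.32 ± 0.36), of which Gata4 and Foxa1 overlapped between libraries. Foxa2, Sox17 and Sox7 closed it at 0.219, 0.137 and 0.104 CPM per kb, and neighbours in that order overlapped. In EBD5 Gata4 (23.9 ± 0.68 CPM per kb) and Hnf4a (23.1 ± 0.31) led and overlapped, followed without further overlap by Foxa2, Sox7, Gata6, Hhex, Foxa1 and Sox17 (3.39 ± 0.23).

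In EBD6 Gata4 (29.2 ± 1.85 CPM per kb) led alone, then Foxa2 (18.2 ± 0.87) and Hnf4a (13.6 ± 1.35). Hnf4a overlapped with Sox7 (11.1 ± 2.19), Sox7 with Sox17 (9.37 ± 1.14) and Gata6 with Foxa1, and Hhex was last at 3.42 ± 0.15 CPM per kb. Hhex, the highest of the 8 in EBD2, was therefore the lowest in EBD6. Hhex held 38.2% of the summed level per kb in EBD2, 6.75% in EBD5 and 3.52% in EBD6, whereas Foxa2 held 1.85%, 15.1% and 18.7%. With the longest transcript as the length, Sox7 stood below Gata6 in EBD5, and in EBD6 below Sox17 and Gata6, with libraries that overlapped with those of both.

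**Figure D3:**
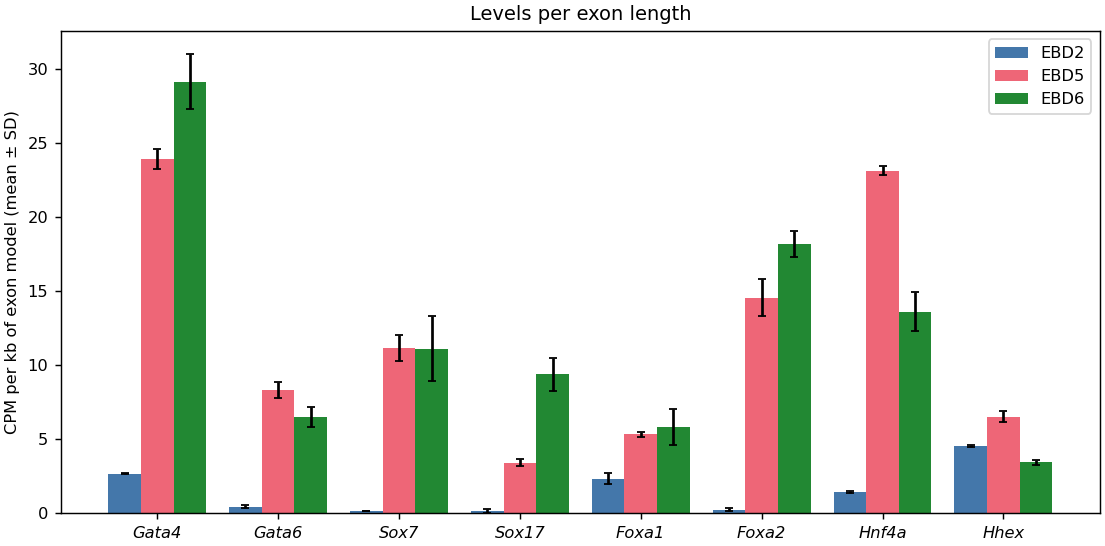
Mean CPM per kb of exon model ± SD over samples (n = 2 for EBD2, 3 for EBD5, 2 for EBD6). Gata4 and Hnf4a are level in EBD5, and Gata4 stands alone at the top in EBD6.

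Genes with the most similar course were looked for over the 9 libraries among 11255 other protein-coding genes with at least 10 CPM in the mean of a group, by Pearson correlation of log2(CPM + 1). The libraries form 3 groups, so the measure mostly compares 3 levels and ignores the size of a change. Gata6 was closest to Bmp2, a BMP ligand gene expressed in mouse visceral endoderm (r = 0.999), followed by Ghr and Prss12. Hnf4a was closest to Clic5, Met and Slc39a1, whose means were highest in EBD5. Sox17 was closest to Slc25a24, Adgrl2 and Shtn1, whose means were highest in EBD6. Foxa2 was closest to Phldb2, Pla2g12b and Lcp1, Gata4 to Tmprss2, Maml3 and Tes, Sox7 to Sec24c, Hrk and Spry4, and Foxa1 to Dip2b, Mtmr11 and Man2b2. Hhex was closest to Prkacb, Zfp958 and Spopl, with r of 0.986 to 0.989. Between 237 (Hhex) and 724 (Gata4) genes had r above 0.95.

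Relatives and binding partners of the 8 factors were mixed. Of 9 listed genes 6 were tested, and against EBD2 the EBD5 samples had 4 higher and 1 lower, or 5 and 1 in the GC-adjusted fit (median log2 1.41, against -0.01 over all tested genes). In EBD6 against EBD5, 4 were higher and none lower (median 1.17, against 0.04 over all tested genes), or 4 and 1 in the GC-adjusted fit. Foxa3, the third FOXA gene, rose at both steps, from 2.91 ± 0.117 to 6.22 ± 0.686 and 11 ± 3.35 CPM. Gata3, a gene known from trophoblast and other tissues, rose from 2.13 ± 0.519 to 9.94 ± 0.881 and 39.6 ± 2.98 CPM, and Gata2, of blood progenitors and trophoblast, from 1.39 ± 0.972 to 5.35 ± 0.203 and 50.5 ± 7.68 CPM.

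Gata1, of red blood cell precursors, had 1, 35 and 45 counts in EBD2, EBD5 and EBD6, or 0.0416, 2.095 and 1.42 CPM. Without EBD2 replicate 1 it had none in EBD2. Zfpm1, whose product FOG1 binds GATA factors, did not pass between EBD2 and EBD5 (21.3 ± 2.71 and 24.2 ± 2.01 CPM; edgeR adjusted p = 0.247; called higher in the GC-adjusted fit, log2 0.84) and was 2.72-fold higher in EBD6 than in EBD5 (log2 1.44, GC-adjusted 0.53). Sox18, the other gene of the SOX F group, fell from 34 counts in EBD2 to 6 in EBD5 and had 5 in EBD6. The log2 change of Sox18 from EBD2 to EBD5 was -2.38 ± 0.57 SE (edgeR adjusted p = 0.00326; log2 -3.37 without EBD5 replicate 3, and -1.77 GC-adjusted). Gata5 and Hnf4g had at most 3 counts in any group, and Zfpm2 12 to 16.

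Endoderm effector genes were mostly higher in EBD5 too, on lists chosen with earlier results of these data known. Of 10 tested primitive and parietal endoderm genes all were higher in EBD5 than in EBD2 (median log2 2.10). Of 14 visceral endoderm genes 13 were higher (median 6.79) and 1, Apoa2, was lower. Of 7 anterior visceral endoderm genes 6 were higher and 1 was lower (median 4.55), or 5 and 1 in the GC-adjusted fit, and the median over all tested genes was -0.01. Otx2 of that list was 1.19-fold higher, and its call ended in the GC-adjusted fit (adjusted p = 0.101).

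From EBD5 to EBD6 the lists parted. The anterior visceral endoderm list, whose genes mark the signalling centre that also expresses Hhex, had 6 of 7 lower and none higher (median log2 -1.25; GC-adjusted -0.70, with the same counts), against a median of 0.04 over all tested genes. Sfrp5, a secreted Wnt antagonist gene, went from 1.01 ± 0.685 to 27.7 ± 1.16 CPM and stood at 3.46 ± 1.41 CPM in EBD6, a fall of log2 -2.83 ± 0.22 SE from EBD5 (edgeR adjusted p = 7.73e-07; GC-adjusted log2 -3.62). Otx2, a head homeobox gene, fell 3.12-fold in EBD6 (edgeR adjusted p = 1.82e-08). It was already at 247 ± 12.8 CPM in EBD2, against 292 ± 7.99 in EBD5, and was lower in EBD6 than in EBD2 (log2 -1.40, edgeR adjusted p = 4.27e-08). Lhx1, a further homeobox gene of that centre, went from 134 ± 10.7 to 48.4 ± 3.42 CPM.

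In the visceral endoderm list 8 of 14 were higher and 5 lower in EBD6 than in EBD5, beside 36.9% and 33.3% of all tested genes. Amn, a partner of cubilin in endocytosis, rose 3.92-fold from 13.04 ± 1.97 CPM and Ihh, a hedgehog ligand gene, 2.91-fold from 9.42 ± 1.25 CPM. The lipoprotein genes Apoa4 and Apob fell 3.53-fold from 42.1 ± 1.82 CPM and 1.78-fold from 870 ± 35.2 CPM (edgeR adjusted p at most 6.81e-06 for each of these 4). The lipoprotein genes of the list did not move together. Apoa1 also fell, from 105.9 to 46.1 CPM, while Apom rose from 23.9 to 43.9 CPM and Apoa2 from 6.21 to 10.9 CPM (edgeR adjusted p at most 0.00151 for each). Cubn, the gene of cubilin itself, fell from 1125 ± 12.2 to 405.9 ± 6.2 CPM (log2 -1.47; edgeR adjusted p = 2.39e-08). The GC-adjusted rises were smaller, at log2 1.181 in place of 1.97 for Amn and 0.56 in place of 1.54 for Ihh. Among primitive and parietal endoderm genes 6 of 10 were higher and 3 lower, or 4 and 4 in the GC-adjusted fit. Col4a2, a basement membrane collagen gene, was 3.399-fold higher (log2 1.76, GC-adjusted 0.77), and Lrp2, the gene of the endocytic receptor megalin, 3.11-fold lower. Thbd of the parietal list had 4, 4 and 34 counts in EBD2, EBD5 and EBD6.

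**Figure D4:**
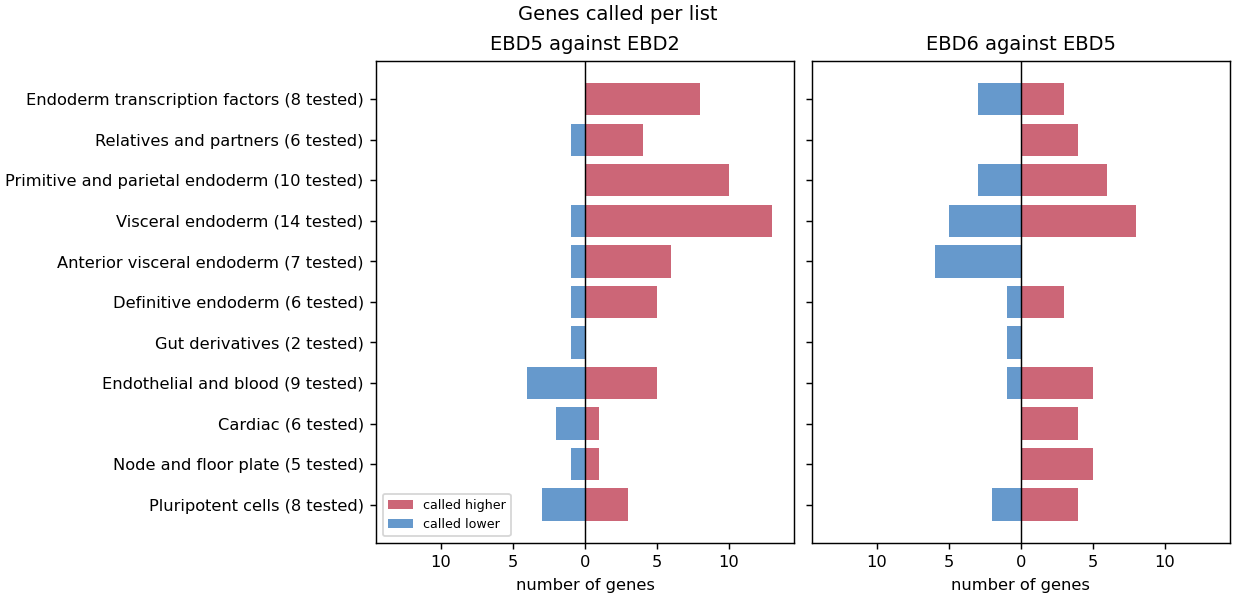
Number of genes called higher (right) and lower (left) per list for EBD5 against EBD2 and EBD6 against EBD5 (edgeR, adjusted p under 0.05). Over all tested genes 34.9% and 36.9% were called higher and 35.1% and 33.3% lower.

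Definitive endoderm, the embryonic layer that forms at the streak, was followed by a list of 7 genes. Of 6 tested, EBD5 had 5 higher and 1 lower against EBD2 (34.9% and 35.1% of all tested genes). In EBD6, 3 were higher and 1 lower than in EBD5 (3 and 2 in the GC-adjusted fit), beside 36.9% and 33.3% of all tested genes. Mixl1, a primitive streak gene, read 0.773 ± 0.152, 5.02 ± 0.937 and 10.6 ± 2.04 CPM in EBD2, EBD5 and EBD6. Nepn, a gene of the mouse midgut and hindgut endoderm, had 0, 13 and 139 counts, while Eomes, needed to specify definitive endoderm, fell from 132 ± 2.31 to 65.4 ± 1.84 CPM. Of 5 markers of gut derivatives 2 were tested. Prox1, of early liver and pancreas among other tissues, read 11.3 ± 1.298, 16.1 ± 2.79 and 8.41 ± 2.92 CPM and was lower in EBD6 than in EBD5 (edgeR adjusted p = 0.00418). Onecut1, of liver and pancreas, had 35, 10 and 21 counts, or 2.01, 0.588 and 0.646 CPM. It was lower in EBD5 than in EBD2 (edgeR adjusted p = 0.00258), a call that ended in DESeq2 (adjusted p = 0.0729). Alb had no count in any library, and Pdx1 and Nkx2-1 had at most 13 counts in a group.

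Markers of the other tissues in which these factors act were counted beside them, and their part in the levels of the 8 genes was not tested. Endothelial and blood markers summed to 187 to 194 CPM in EBD2, 143 to 152 in EBD5 and 240 to 274 in EBD6. Much of these sums was Pecam1, at 149, 155 and 152 CPM in the EBD2 libraries, 60.2 ± 1.46 CPM in EBD5 and 81.3 ± 1.14 CPM in EBD6. In EBD6, 5 of 9 tested were higher than in EBD5 and 1 was lower (36.9% and 33.3% of all tested genes). The largest rises in the list were those of Cdh5, the gene of VE-cadherin, and Kdr, a VEGF receptor gene. Cdh5 had 1 count in each EBD2 library and read 2.04 ± 0.687 CPM in EBD5 and 44.8 ± 7.80 in EBD6 (22.4-fold over EBD5, edgeR adjusted p = 2.39e-08). Kdr had 3, 1 and 2 counts in the EBD2 libraries. It read 1.303 ± 0.155 CPM in EBD5 and 9.34, 10.2 and 8.83 CPM in the EBD6 libraries (7.14-fold over EBD5, edgeR adjusted p = 1.22e-06). Lmo2, of blood progenitors, read 5.31 ± 0.214, 1.83 ± 0.156 and 8.67 ± 1.05 CPM in EBD2, EBD5 and EBD6. Flt1, a further VEGF receptor gene, rose from 37.5 ± 1.496 in EBD5 to 78.0 ± 7.62 CPM in EBD6. Tek was the gene called lower, from 15.99 ± 0.412 to 9.446 ± 1.4 CPM, and 3 were not called. Against EBD2, EBD6 had 5 of 9 higher and 3 lower (33.8% and 32.3% of all tested genes). Those lower were Pecam1, Tal1 (from 9.625 ± 0.0856 to 1.462 ± 0.572 CPM) and Etv2 (from 3.202 ± 0.294 to 1.341 ± 0.0966 CPM). The other endothelial genes Emcn, Erg, Fli1 and Tie1 had 1, 5, 41 and 36 counts in EBD6, and Emcn had none in EBD2 and EBD5. Cardiac markers summed to 19.2 to 24.6 CPM in EBD2, 13.4 to 14.0 in EBD5 and 25.4 to 27.1 in EBD6. Of 6 tested, 4 were higher and none lower in EBD6 than in EBD5 (3 and 1 in the GC-adjusted fit), beside 36.9% and 33.3% of all tested genes. Of these 6, 4 were higher and 2 lower in EBD6 than in EBD2 (33.8% and 32.3% of all tested genes). Those lower were Myh6, from 9.26 to 2.83 CPM, and Myl7, from 3.295 to 1.299 CPM. Of the genes not tested, Nkx2-5 read 1.87, 0.294 and 0.364 CPM in EBD2, EBD5 and EBD6. Hand2 had no count in EBD5, and Tbx5 and Mef2c had none in EBD2.

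Node and floor plate markers summed to 9.86 to 12.6 CPM in EBD2, 8.5 to 10.4 in EBD5 and 54.1 to 63.1 in EBD6. All 5 tested were higher in EBD6 than in EBD5, beside 36.9% of all tested genes. Shh, expressed in the floor plate and notochord, had 0, 1 and 86 counts in EBD2, EBD5 and EBD6, and T, a notochord and streak gene, rose 15.5-fold from EBD5 to EBD6. In EBD5, where Foxa2 was at 34.5 ± 2.98 CPM, Noto had no count, Shh 1, T 29, Nog 31, Chrd 42 and Foxj1 61 counts. Against EBD2, Nog was 6.28-fold higher there (edgeR adjusted p = 4.32e-04; log2 3.31 in place of 2.65 without EBD2 replicate 2) and Chrd was lower (edgeR adjusted p = 0.00882).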

How the data were processed

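Polyadenylated RNA was extracted with Trizol and made into libraries with a KAPA kit, per the labels' protocols. The deposited values are RSEM expected counts per Ensembl gene, which the authors made with STAR 2.7.10a and RSEM on mm10 after trimming with cutadapt 1.18, per the submitters' processing notes. The sources used here give neither the gene annotation nor the strand setting. Expected counts were rounded to whole numbers, and 1 row with no gene was left out. A second deposited table held the EBD6 libraries again, with the same values in all 54233 rows, and was not used further.

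The 8 genes and the lists were chosen with earlier results of these data known. A pair of libraries of 1 group was summed where a chi-square test over genes with 20 or more counts found no difference (p of 0.05 or more). The resulting 7 samples were fitted together with edgeR 4.0.16 in R 4.3.3 (filterByExpr, TMM, quasi-likelihood F test, Benjamini-Hochberg, adjusted p under 0.05), which tested 16168 genes on 4 residual degrees of freedom. The biological coefficient of variation shared by all genes was 6.72%. CPM used TMM-scaled library sizes. The script was tested on simulated counts.

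Coordinates, exon models and neighbours within 5 kb came from GENCODE M21, which held 99.9% of the gene rows. Counting intervals are exact at the 95% level and cover counting error only. The GC-adjusted fit removed median log2 changes in 10 GC bins by 5 length bins. DESeq2 1.42.0, limma-voom (limma 3.58.1), other filters, groupings and scalings, and leaving out each of the 9 libraries gave 20 alternatives. Named genes were the 8, their neighbours, their relatives, at most 4 called genes of largest change per list, comparison and direction, the 3 genes of most similar course and Pou5f1, Sox2 and Nanog. Other relatives were left off the list and are not reported here. Marker genes named by counts alone were chosen after their values were seen.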

Additional observations from a re-analysis of the deposited data

How the results depend on the processing

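The 24 fold changes of the 8 genes kept direction and side of the threshold in 462 of 480 values under 20 alternatives, and 17 of the 24 did so in every one. All 8 stayed higher in EBD5 than in EBD2, and only Hhex lost its call there (fold of 1.5). From EBD5 to EBD6 the GC-adjusted fit turned Gata4 (log2 -0.346), Foxa1 (-0.285), Foxa2 (-0.295) and Sox7 (-0.095). Sox7 also turned with DESeq2 size factors (-0.0) and in DESeq2 (-0.021), and ranged from -0.019 to 0.195 with a library left out. For other named genes 2366 of 2424 values kept both. Those of most similar course were not rerun, and Tek, Tal1, Etv2, Lefty1, Apoa1, Apom, Myh6 and Myl7 are not counted here. Foxj1 in EBD5 against EBD2 turned with no filter and with the replicate block (both -0.001) and ranged from -0.143 to 0.078 with a library left out. The GC-adjusted fit called Foxj1 higher there (0.753, adjusted p = 0.0101). GC adjustment turned Pou5f1 in EBD5 against EBD2 (0.25), 9030622O22Rik in EBD6 against EBD5 (0.18), and Nanog in EBD6 against EBD2 (0.059; -0.167 to 0.011 with a library left out). The causes were not tested.

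Against a fold of 1.5, 3 of the 8 were called between EBD5 and EBD6 (1 higher, 2 lower), and of all genes 5606 (EBD5 against EBD2), 5317 (EBD6 against EBD5) and 4918 (EBD6 against EBD2), in place of 11319, 11356 and 10685, as a stricter test must give fewer. With the longest transcript as length, the ratio of Sox17 to Sox7 was 0.4463 in EBD5 and 1.251 in EBD6, and that of Gata6 to Gata4 was 0.2429, 0.5198 and 0.3325 in EBD2, EBD5 and EBD6.

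Same-numbered libraries did not deviate together (correlations from -0.0871 to 0.0467 over 9 pairs), and different-numbered ones ranged from -0.0843 to 0.1015. Several libraries of a group differed by little beyond sampling noise, so these correlations cannot tell whether the numbers pair them. With the replicate number as a block over 9 separate libraries, 8, 6 and 8 of the 8 genes were called in EBD5 against EBD2, EBD6 against EBD5 and EBD6 against EBD2, and 11512, 11678 and 11452 of all genes. With 1 to 6 counts per EBD2 library, depth limits the fold changes of Sox7, Sox17 and Foxa2.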
